A study of Mus musculus with 33 samples.

Results

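The genes described here are the 47 genes of glycolysis and the tricarboxylic acid (TCA) cycle whose symbols were listed by name among the 24421 genes of each count table. They comprise 3 glucose transporters, 12 genes of upper glycolysis, 6 of lower glycolysis, 4 of lactate formation and transport, 1 of gluconeogenesis, 6 of pyruvate entry into mitochondria, 14 of the TCA cycle and Irg1, which makes itaconate. All 47 symbols were found, and 42 of them had at least 1 read in every one of the 33 libraries.

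Glycolysis splits glucose into pyruvate in the cytosol, and pyruvate is either reduced to lactate and exported or carried into mitochondria, where pyruvate dehydrogenase feeds it into the TCA cycle. In macrophages the balance between these routes is known to shift with activation and with the oxygen and nutrients of the tissue. Itaconate, made from the TCA cycle intermediate cis-aconitate, is a well known product of activated macrophages.

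The study used RNA sequencing of sorted Kupffer cells (KCs), the resident macrophages of the liver, and alveolar macrophages (AMs) of the lung, to ask how loss of the transcription factor Zeb2 changes each. All mice were C57Bl/6 and carried floxed Zeb2 alleles, and per the study's methods they were 6 to 8 weeks old and of both sexes, and 25000 cells were sorted for each sample. The controls were CRE- KCs (6 samples) and CRE- AMs (5 samples) from Zeb2 fl/fl mice. The CRE+ groups were Tim4+ KCs (6 samples) and Tim4- KCs (6 samples) from Clec4f-crexZeb2 fl/fl mice, and CD11b- AMs (5 samples) and CD11b+ AMs (5 samples) from Itgax-crexZeb2 fl/fl mice. Clec4f-cre targets KCs, though the study also found its reporter in a minor set of B cells, and Itgax-cre follows CD11c and is active in other CD11c+ cells as well as AMs. The labels do not say whether a CRE+ sample was restricted to cells that had lost both Zeb2 copies. By genomic PCR the study found cells that kept a Zeb2 copy among the KCs and AMs of CRE+ mice. Such KCs were Tim4+ or Tim4-, and the study took the Tim4- ones as putative monocyte-derived KCs. The CRE+ groups may thus mix genotypes and origins, and their order is not a scale of Zeb2 loss.

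Libraries held 9837240 to 24332306 reads on genes, and every pair of libraries of a group differed by more than sampling noise. The labels do not say that samples of a group came from separate mice, so p-values measure only the spread between these samples. Levels are given as CPM, which are read counts scaled to a common library size by TMM, and a gene is said to have risen or fallen, or to be higher or lower, only where the Benjamini-Hochberg adjusted p of edgeR's quasi-likelihood test over all tested genes was under 0.05. Zeb2 itself averaged 283 CPM ± 38.7 (SD, n = 6) in CRE- KCs, 175 ± 25.9 in the Tim4+ and 170 ± 16.3 in the Tim4- group. In AMs it averaged 194 ± 16.3 (n = 5), 105 ± 11.9 and 62.1 ± 7.88 in the CRE-, CD11b- and CD11b+ groups. Counts over the whole gene do not tell a shortened transcript from a full one. The 5 Kupffer cell markers summed to 9103 CPM or more in every KC library and to 25.2 CPM or less in every AM library, and the 5 alveolar macrophage markers to 18032 CPM or more in AM libraries and 143 CPM or less in KC libraries. The 6 libraries numbered 5 and 6 among the KCs held 2706 to 3663 reads of Y-linked genes and no Xist reads, while the other 27 libraries held at most 4 Y-linked reads, so KC comparisons are also given for replicates 1 to 4. Fewer cells of one type and less RNA per cell cannot be told apart in such bulk samples.

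CRE- KCs and CRE- AMs differed at most members. Of 46 members tested, 11 lay higher in CRE- KCs and 21 lay higher in CRE- AMs (23.9% and 45.7%), against 33.3% higher and 29.9% lower among all 12145 genes tested. With KC replicates 1 to 4 only, 9 were higher and 20 lower. The members' median log2 difference was -0.20 and that of all genes 0.03. Groups did not overlap for 7 higher and 19 lower members, against 25.4% and 23.3% of all genes tested, and 9 higher and 8 lower called members also had an absolute log2 difference above 1, against 20.9% and 12.4%.

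Genes for transport and phosphorylation of glucose were higher in KCs. Slc2a3, a high-affinity glucose transporter, ranged from 7.58 CPM (median 12.9) to 18.3 CPM in CRE- KCs and from 0.390 to 1.83 CPM in CRE- AMs, a log2 difference of 3.41 ± 0.36 (SE, edgeR quasi-likelihood adjusted p = 1.21e-06). Hk3, a hexokinase of myeloid cells, ranged from 423 (median 460) to 491 CPM in CRE- KCs and was 45.6, 47.5, 56.8, 55.4 and 55.5 CPM in the 5 CRE- AM samples. The CRE- groups did not overlap for Hk3, with a difference of 3.14 ± 0.08 (adjusted p = 3.52e-13). Hk1 and Hk2, the 2 other hexokinases, were also higher in KCs by 2.14 ± 0.13 and 1.30 ± 0.15. Slc2a1, the basal glucose transporter, was higher by only 0.46 ± 0.15 (adjusted p = 0.0172), its groups overlapped, and with KC replicates 1 to 4 the difference was 0.37 (adjusted p = 0.0804).

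Of the 12 genes of upper glycolysis, 4 were higher in KCs and 5 lower, against 33.3% and 29.9% of all genes tested. Pfkp, the platelet-type phosphofructokinase, ranged from 55.6 (median 62.0) to 64.8 CPM in CRE- KCs and was 243, 237, 247, 271 and 276 CPM in CRE- AMs, a log2 difference of -2.05 ± 0.07 (adjusted p = 2.82e-12). Aldoc, the aldolase best known from brain, ranged from 3.25 (median 3.65) to 6.76 CPM in CRE- KCs against 123, 97.4, 112, 148 and 106 CPM in CRE- AMs. That was the widest negative difference among the members, -4.83 ± 0.19 (adjusted p = 1.86e-11). Pfkfb4, which sets the level of the sugar bisphosphate that activates phosphofructokinase, was also lower in KCs (-2.76 ± 0.08), as was Aldoa, the main aldolase (-1.30 ± 0.05), while Pfkfb3 did not pass the test (-0.32 ± 0.17, adjusted p = 0.115).

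Slc16a1 and Slc16a3, which carry lactate and pyruvate across the plasma membrane, were lower in KCs, with log2 differences of -2.77 ± 0.21 and -2.40 ± 0.14. Slc16a1 ranged from 3.64 (median 6.12) to 9.51 CPM in CRE- KCs, and Slc16a3 from 14 (median 16.7) to 24.8 CPM. Ldhb, the lactate dehydrogenase subunit that favours lactate oxidation, went the other way, with 5.46 (median 6.98) to 12.2 CPM in CRE- KCs and 0.146 to 0.428 CPM in CRE- AMs (4.97 ± 0.36, adjusted p = 2.1e-08), whereas Ldha was lower in KCs (-0.49 ± 0.08). Per kb of exon, Ldhb was still only 2.1% ± 0.65 of the 2 lactate dehydrogenases in CRE- KCs.

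Genes of pyruvate entry and of the TCA cycle were in part lower in KCs. Mpc1 and Mpc2, the 2 subunits of the mitochondrial pyruvate carrier, were lower in KCs (-2.12 ± 0.08 and -1.02 ± 0.09). Of the 14 TCA cycle genes, 6 were lower and 1 higher, against 29.9% and 33.3% of all genes tested. The 6 ran from -0.26 for Fh1 to -0.76 for Ogdh, a subunit of the oxoglutarate dehydrogenase complex. The Fh1 call was lost without CRE- AM replicate 1 (adjusted p = 0.0541) and with KC replicates 1 to 4 only (adjusted p = 0.0994). Mdh1, the cytosolic malate dehydrogenase, was the 1 gene of that list that was higher (0.59 ± 0.06). Irg1 was 4.72 (median 7.19) to 21.4 CPM in CRE- KCs and 0, 1.17, 1.33, 1.66 and 1.21 CPM in CRE- AMs (3.16 ± 0.62, adjusted p = 0.000472; 3.84 with limma-voom). Fbp1, the gluconeogenic fructose bisphosphatase, was higher in KCs by 2.96 ± 1.0 (adjusted p = 0.0185), but CRE- AM replicate 4 held 7.70 CPM where the other 4 held 0 to 0.244, and without that library the difference was 6.68. With KC replicates 1 to 4 only it was 2.52 (adjusted p = 0.0691), and limma-voom gave 5.91. Pdk1, Idh1 and Idh2 did not pass the test (-0.04 ± 0.22, -0.10 ± 0.09 and 0.09 ± 0.10). Hepatocyte marker genes summed to 2138 to 3095 CPM in CRE- KCs, and liver endothelial markers to 648 to 1921 CPM. The same 8 hepatocyte genes summed to 2957 to 3552 CPM in CRE- AMs, although 4 of them held 3 reads or fewer in every library there. Of these 8, 7 were higher in CRE- KCs and 1 lower, so their sum does not measure hepatocyte RNA alone. The part of either list in these differences was not tested.

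**Figure D1:**
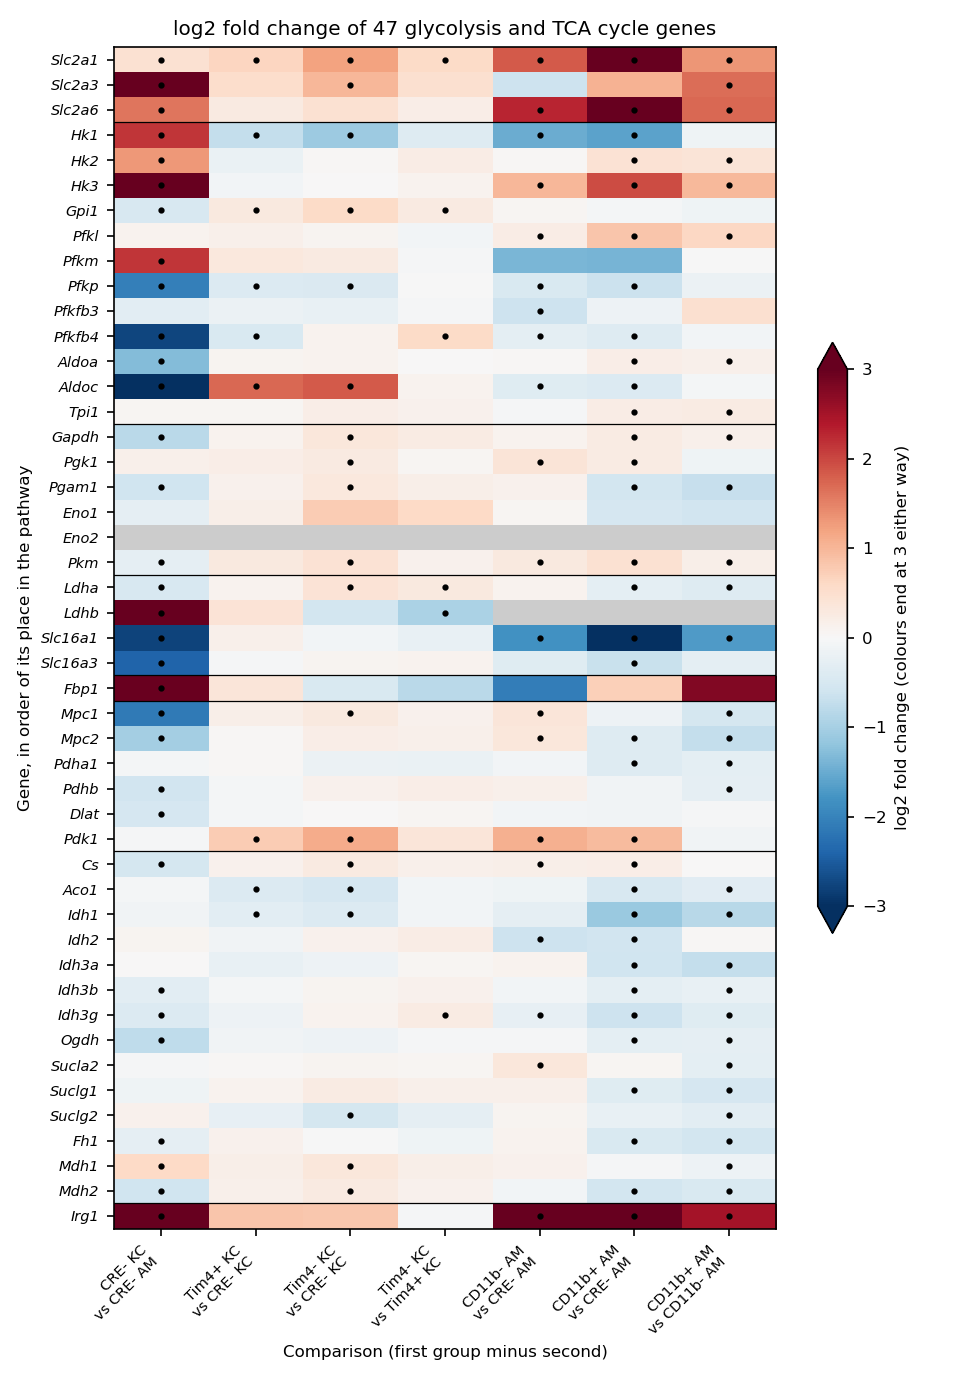
Log2 fold change (colour, ending at 3 either way) of the members (rows, in pathway order) in each comparison of 2 groups (columns), with a dot where the adjusted p was under 0.05 and grey where a gene was not tested. The KC-to-AM column runs from -4.83 for Aldoc to 4.97 for Ldhb, and the strongest increases in CD11b+ AMs are Irg1 (5.66), Slc2a6 (4.0) and Slc2a1 (3.16).

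Tim4+ KCs differed from CRE- KCs at few members. Of 46 tested, 4 rose and 5 fell (8.70% and 10.9%), against 3.63% and 2.46% of the 12500 genes tested in KCs, with median log2 changes of 0.10 for members and -0.00 for all genes. With replicates 1 to 4 only, 2 rose and 1 fell. Tim4+ and Tim4- KCs were both set against the same CRE- KC samples, so their changes are not independent. The genes that rose were Slc2a1, Gpi1, Aldoc and Pdk1, and those that fell were Hk1, Pfkp, Pfkfb4, Aco1 and Idh1.

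In Tim4- KCs 14 members rose and 5 fell (30.4% and 10.9%), against 12.2% and 13.2% of all genes, and with replicates 1 to 4 only 10 rose and 3 fell. Groups did not overlap for 7 risen and 3 fallen members in Tim4- KCs, against 5.99% and 4.99% of all genes, and for 1 and 1 in Tim4+ KCs, against 3.11% and 1.71%. With a log2 change above 1 either way, 3 rose and 1 fell in the Tim4- group (3.43% and 5.39% of all genes) and 1 rose in the Tim4+ group (1.94% of all genes, and 0.376% fell). The median log2 change of members was 0.12, and that of all genes -0.03.

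Slc2a1 ranged from 30.5 (median 39.5) to 52.5 CPM in CRE- KCs, from 50.5 (median 64.0) to 69.7 CPM in Tim4+ KCs and from 76.1 (median 93.2) to 115 CPM in Tim4- KCs. Tim4- KCs lay above both other groups in every library, while Tim4+ and CRE- KCs touched at the edge. The log2 change was 0.64 ± 0.13 (adjusted p = 0.0037) in the Tim4+ and 1.20 ± 0.13 (adjusted p = 1.03e-06) in the Tim4- group, and Tim4- exceeded Tim4+ KCs by 0.56 ± 0.13 (adjusted p = 0.00626), a difference that was 0.50 (adjusted p = 0.0697) with replicates 1 to 4 only.

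Pdk1, a kinase that switches off pyruvate dehydrogenase, followed the same order. It ranged from 9.02 (median 12.6) to 19.7 CPM in CRE- KCs, 17.5 (median 21.1) to 32.0 CPM in Tim4+ KCs and 23.3 (median 27.7) to 34.9 CPM in Tim4- KCs. The change was 0.76 ± 0.18 (adjusted p = 0.0122) and 1.12 ± 0.18 (adjusted p = 0.000125), and the difference between the Tim4 groups did not pass the test (0.36 ± 0.18, adjusted p = 0.225).

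Aldoc rose from the low level of CRE- KCs to between 8.62 (median 13.2) and 21.8 CPM in Tim4+ KCs and between 3.27 (median 16.9) and 22.5 CPM in Tim4- KCs. The changes of 1.73 ± 0.35 (adjusted p = 0.00337) and 1.83 ± 0.35 (adjusted p = 0.000638) were the largest of the members in these cells, yet the levels stayed below every AM library. With replicates 1 to 4 only, the Tim4+ change was 1.55 (adjusted p = 0.0633). Gpi1, which turns glucose phosphate into fructose phosphate, rose by 0.29 ± 0.08 and 0.57 ± 0.08, and its Tim4+ change was 0.29 (adjusted p = 0.122) with replicates 1 to 4 only.

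Slc2a3 rose in Tim4- KCs, to between 12.7 (median 21.2) and 51.9 CPM, overlapping CRE- KCs (0.99 ± 0.29, adjusted p = 0.0145). That call was lost without Tim4- KC replicate 5 (0.66, adjusted p = 0.0519) and with replicates 1 to 4 only (0.77, adjusted p = 0.102).

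Hk1 moved the other way, from 89.2 (median 105) to 138 CPM in CRE- KCs down to 42.7 (median 68.8) to 90.4 CPM in Tim4+ KCs and 43.4 (median 50.0) to 61.6 CPM in Tim4- KCs. It fell by 0.70 (SE 0.16, adjusted p = 0.00689) and by 1.10 (SE 0.16, adjusted p = 2.94e-05) on the log2 scale, without overlap in Tim4- KCs. With replicates 1 to 4 only, the Tim4+ change was -0.53 (adjusted p = 0.12) and did not pass. Hk2 and Hk3 did not pass the test in either group (-0.19 ± 0.15 and -0.08 ± 0.07 in the Tim4+ group, 0.02 ± 0.15 and 0.02 ± 0.07 in the Tim4- group). Aco1, the cytosolic aconitase that doubles as an iron sensor, fell by 0.41 (SE 0.07) and 0.50 (SE 0.07), with no overlap between either CRE+ group and the controls. Idh1, the cytosolic NADP-dependent isocitrate dehydrogenase, fell by 0.32 (SE 0.08, adjusted p = 0.0247) and 0.41 (SE 0.08, adjusted p = 0.00117).

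Several of the Tim4+ calls lay close to the threshold. Idh1 lost its call there on leaving out CRE- KC replicate 3 or 6 or Tim4+ KC replicate 1, 2, 3 or 6 (adjusted p up to 0.0797), and with replicates 1 to 4 only (adjusted p = 0.16). Pfkp, which fell by 0.41 (SE 0.12, adjusted p = 0.034) in Tim4+ KCs and by 0.44 (SE 0.12, adjusted p = 0.00839) in Tim4- KCs, lost the Tim4+ call without CRE- KC replicate 3, 4, 5 or 6 or Tim4+ KC replicate 2, 3, 5 or 6 (adjusted p up to 0.117). With replicates 1 to 4 only its changes were -0.28 (adjusted p = 0.476) and -0.36 (adjusted p = 0.0924). Pfkfb4 lost its Tim4+ call on leaving out any library but CRE- KC replicate 6 or Tim4+ KC replicate 3 (adjusted p up to 0.114), and Gpi1 without CRE- KC replicate 4 or 5 or Tim4+ KC replicate 3 (adjusted p up to 0.0587).

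In lower glycolysis, which runs from the triose phosphates to pyruvate, 4 of 5 tested genes rose in Tim4- KCs and none fell, against 12.2% and 13.2% of all genes. These were Gapdh, Pgk1, Pgam1 and Pkm, which rose by 0.27 to 0.44. In Tim4+ KCs none of the 5 passed the test at log2 changes of 0.10 to 0.30, where 3.63% of all genes rose and 2.46% fell. Pkm in Tim4+ KCs (adjusted p = 0.0513) passed in 7 of the other settings, limma-voom (adjusted p = 0.0426) and DESeq2 (adjusted p = 0.0151) among them, and without Tim4+ KC replicate 1 or 2. Pgk1 lost its Tim4- call without CRE- KC replicate 3, 4, 5 or 6 or Tim4- KC replicate 1, 2, 3 or 4 (adjusted p up to 0.105). With replicates 1 to 4 only, 2 of the 5 rose in Tim4- KCs. Ldha ranged from 644 (median 765) to 859 CPM in CRE- KCs and from 930 (median 961) to 1263 CPM in Tim4- KCs, which did not overlap (0.40 ± 0.09, adjusted p = 0.00328). In Tim4+ KCs it did not pass the test (0.10 ± 0.09, adjusted p = 0.643). Of the 14 TCA cycle genes, Cs, Mdh1 and Mdh2 rose and Aco1, Idh1 and Suclg2 fell in Tim4- KCs, where 12.2% of all genes rose and 13.2% fell. With replicates 1 to 4 only, Mdh2 (adjusted p = 0.0874) and Suclg2 (adjusted p = 0.165) did not pass.

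Irg1 was 8.31 (median 15) to 30.7 CPM in Tim4+ KCs and 8.69 (median 15.2) to 26.5 CPM in Tim4- KCs, overlapping CRE- KCs in both. Its changes of 0.84 ± 0.38 (adjusted p = 0.261) and 0.80 ± 0.39 (adjusted p = 0.136) did not pass the test, though the Tim4- change passed without CRE- KC replicate 4 (1.21, adjusted p = 0.021). Ldhb, Slc16a3, Fbp1, Pfkfb3 and Idh2 also did not pass in either group, at log2 changes between -0.55 and 0.40. Ldhb in Tim4- KCs did pass without Tim4- KC replicate 4 (-0.72, adjusted p = 0.0405) and with a replicate block (-0.54, adjusted p = 0.0426).

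The direct comparison of Tim4- with Tim4+ KCs called 5 members higher and 1 lower of 46 (10.9% and 2.17%), against 3.84% and 7.62% of all genes, and 3 and 2 with replicates 1 to 4 only. Slc2a1, Gpi1, Pfkfb4, Ldha and Idh3g, a subunit of the TCA cycle's NAD-dependent isocitrate dehydrogenase, were higher, and Ldhb was lower (-0.95 ± 0.25, adjusted p = 0.0139). Groups did not overlap for 2 of these, Slc2a1 and Idh3g, against 1.45% of all genes, and for none of the lower ones, against 4.42%. No member differed by more than 1 either way, against 0.440% higher and 5.01% lower of all genes. The Ldha difference of 0.30 ± 0.09 (adjusted p = 0.0433) lost its call without Tim4+ KC replicate 1, 2, 4 or 6 or Tim4- KC replicate 2, 3 or 4 (adjusted p up to 0.123).

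Markers of KCs and of other cell types moved with the KC groups. Liver endothelial markers summed to 1078 to 3160 CPM in Tim4+ KCs and 368 to 529 CPM in Tim4- KCs, where all 8 fell against CRE- KCs. Monocyte markers summed to 76.2 to 308 CPM in CRE- KCs, 107 to 364 CPM in Tim4+ KCs and 361 to 874 CPM in Tim4- KCs, and 2 of 4 tested rose in each CRE+ group. Neutrophil markers summed to 86.6 to 132, 89.4 to 124 and 115 to 190 CPM over the 3 groups, and 2 of 3 tested rose in Tim4- KCs. Kupffer cell markers summed to 21869 to 24292 CPM in CRE- KCs and 12490 to 14262 CPM in Tim4+ KCs, where 4 of 5 fell. In Tim4- KCs they summed to 9103 to 10705 CPM, and 5 of 5 fell. The list holds Timd4, the gene of the sort marker Tim4, so its fall in Tim4- KCs follows from the sort. It also holds Clec4f, the gene that carries the Cre in these mice. The 5 B cell markers summed to 47.7 to 86.8 CPM in CRE- KCs, 21.1 to 48.9 CPM in the Tim4+ and 48.4 to 111 CPM in the Tim4- group. Hepatocyte markers summed to 1662 to 3043 and 1421 to 2473 CPM in Tim4+ and Tim4- KCs. This list summed to 2957 to 3552 CPM in CRE- AMs as well, so its sum does not measure hepatocyte RNA alone. The part of all these markers in the changes of the members was not tested.

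**Figure D2:**
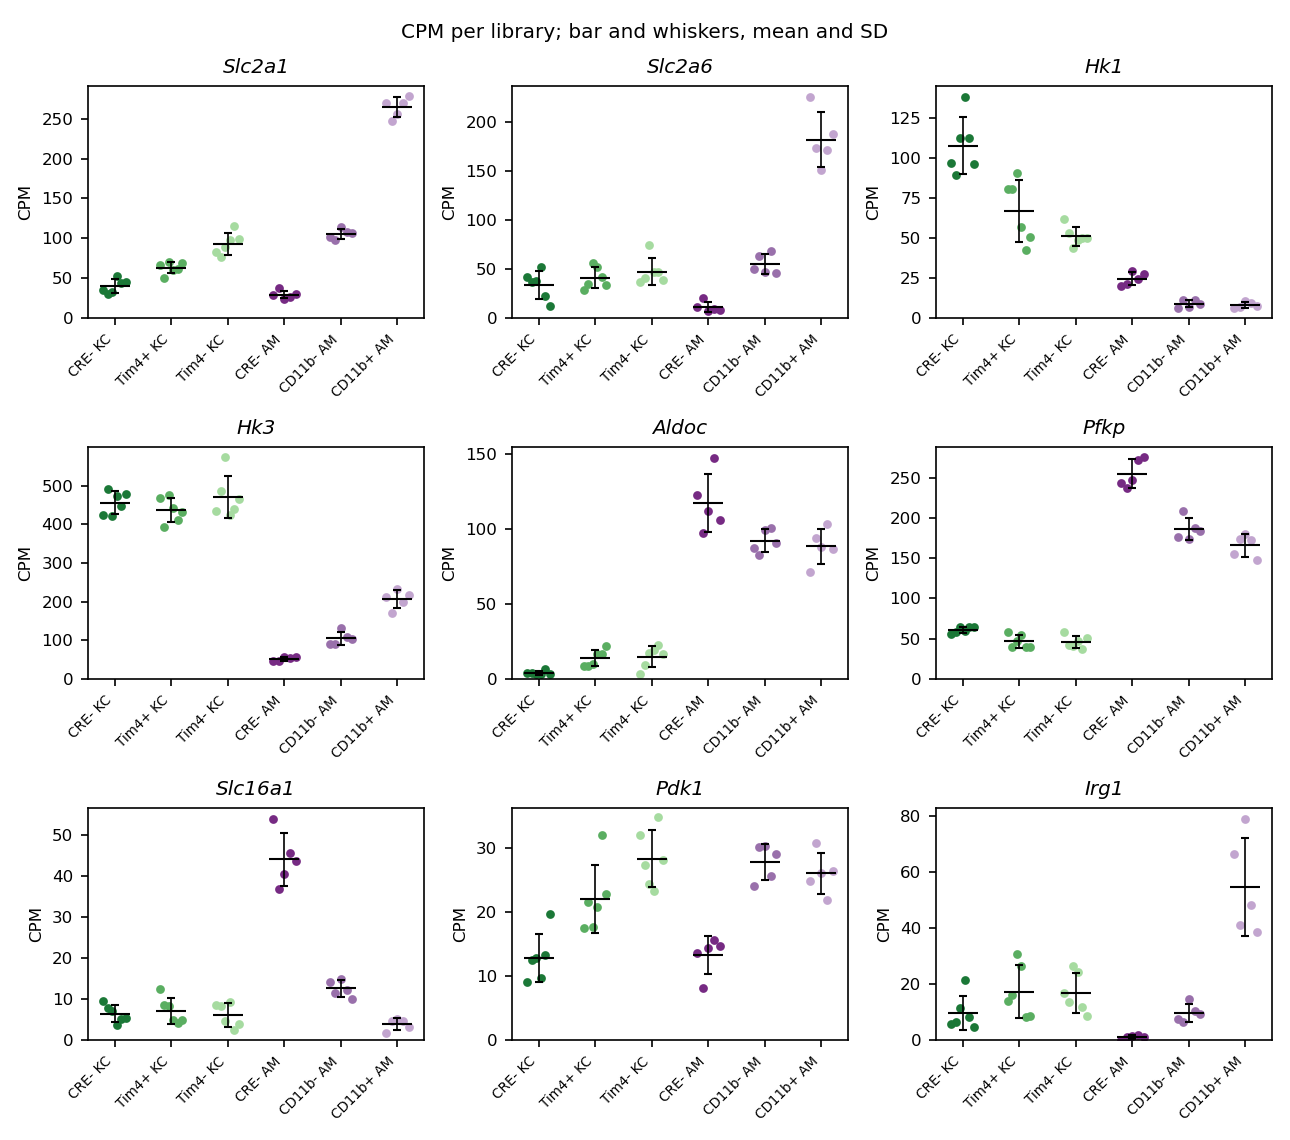
Level of 9 members in each library (points; CPM, TMM scaled) with the group mean and SD (bars), for the 6 groups. Slc2a1 climbs from 40.0 to 63.0 and 93.2 CPM over the KC groups and from 29.3 to 106 and 264 CPM over the AM groups, while Slc16a1 drops from 44.0 to 12.5 and 3.85 CPM over the AM groups.

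CD11b- and CD11b+ AMs were both compared with the same CRE- AM samples. In CD11b- AMs 12 of 45 tested members rose and 8 fell (26.7% and 17.8%), against 13.3% and 12.4% of the 11573 genes tested in AMs. In CD11b+ AMs 13 rose and 20 fell (28.9% and 44.4%), against 22.8% and 20.5%. When only library totals were used for scaling, which shifted the median of all genes to -0.19, the CD11b+ counts became 7 and 27. Groups did not overlap for 13 higher and 7 lower members in CD11b- AMs, against 9.77% and 8.29%, and for 12 and 18 in CD11b+ AMs, against 18.6% and 13.9%. Above a log2 change of 1, 4 rose and 2 fell in the CD11b- group (3.98% and 2.51% of all genes) and 4 rose and 3 fell in the CD11b+ group (9.57% and 5.68%).

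Slc2a1 was 29.4, 37.0, 24.1, 26.3 and 29.8 CPM in the 5 CRE- AM samples, 102, 97.7, 114, 108 and 106 CPM in CD11b- AMs and 270, 247, 256, 270 and 278 CPM in CD11b+ AMs. The 3 groups were fully apart. The log2 change was 1.84 ± 0.09 (adjusted p = 1.84e-11) in CD11b- AMs and 3.16 ± 0.10 (adjusted p = 2.22e-15) in CD11b+ AMs, and CD11b+ exceeded CD11b- AMs by 1.31 ± 0.09 (adjusted p = 1.16e-09).

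Slc2a6, a transporter of the same family found mainly on internal membranes, climbed in the same order. It was 11.0, 20.6, 7.04, 9.41 and 8.30 CPM in CRE- AMs, 49.6, 63.6, 47.2, 68.8 and 45.5 CPM in CD11b- AMs and 226, 174, 151, 171 and 188 CPM in CD11b+ AMs. No groups overlapped, and the changes were 2.28 ± 0.22 (adjusted p = 2.19e-07) and 4.0 ± 0.23 (adjusted p = 2.33e-11). Slc2a3 stayed at 3.59 CPM or less in every AM library and did not pass the test against CRE- AMs, although its CD11b+ change of 1.05 (adjusted p = 0.0685) passed with limma-voom (1.15, adjusted p = 0.0308), with DESeq2 (1.06, adjusted p = 0.0386) and without CRE- AM replicate 3 (1.25, adjusted p = 0.0494).

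Irg1 had the largest change of the members in both CRE+ AM groups. It was 7.50, 6.37, 14.7, 10.3 and 9.22 CPM in CD11b- AMs and 66.5, 41.2, 79.0, 48.1 and 38.7 CPM in CD11b+ AMs, against at most 1.66 CPM in CRE- AMs. The changes of 3.15 ± 0.40 (adjusted p = 7.92e-06) and 5.66 ± 0.41 (adjusted p = 7.32e-10) correspond to 8.91-fold and 50.4-fold. With limma-voom the 2 values were 3.99 and 6.51.

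Among the hexokinases, Hk3 rose as Hk1 fell. Hk3 was 91.1, 91.1, 131, 109 and 102 CPM in CD11b- AMs and 213, 171, 233, 199 and 217 CPM in CD11b+ AMs, clear of CRE- AMs in both (1.0 ± 0.10 and 1.97 ± 0.11). Hk1 was 20.2, 21.1, 29.5, 24.2 and 27.6 CPM in CRE- AMs, 6.34, 11.0, 6.90, 11.3 and 8.53 CPM in CD11b- AMs and 6.10, 7.06, 10.8, 9.59 and 7.19 CPM in CD11b+ AMs. It fell by 1.48 (SE 0.19, adjusted p = 1.03e-05) and 1.60 (SE 0.19, adjusted p = 1.1e-06) on the log2 scale, and the 2 CRE+ groups overlapped. Hk2 rose in CD11b+ AMs by 0.44 ± 0.13 (adjusted p = 0.00781), a call lost with library totals (0.26, adjusted p = 0.0992), and did not pass in CD11b- AMs (0.04 ± 0.13).

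Expressed per kb of exon as a share of the 3 hexokinases, Hk3 made up 64.2% ± 2.69 (SD, n = 5) in CRE- AMs, 81.9% ± 1.67 in the CD11b- and 87.6% ± 2.36 in the CD11b+ group, next to 83.3% ± 2.24 (n = 6) in CRE- KCs. Hk1 went from 13.0% to 3.03% and 1.5% in AMs, and from 8.49% to 5.69% and 4.14% in KCs. The phosphofructokinase subunits shifted as well. Pfkl, the liver-type subunit, made up 32.4% ± 2.80, 43.5% ± 1.96 and 57.1% ± 2.92 over the AM groups, and Pfkp 66.6% ± 2.35, 56.0% ± 2.01 and 42.5% ± 2.88. These phosphofructokinase shares do not overlap between the AM groups. The size of all these shares depends on the exon lengths used, which were 13401 bases for Pfkp and 6675 for Pfkl. Before division by length, Pfkp still exceeded Pfkl in CD11b+ AMs, at means of 166 and 111 CPM. The Hk3 shares overlap between CD11b- AMs (80.2% to 84.7%) and CD11b+ AMs (83.7% to 89.9%).

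**Figure D3:**
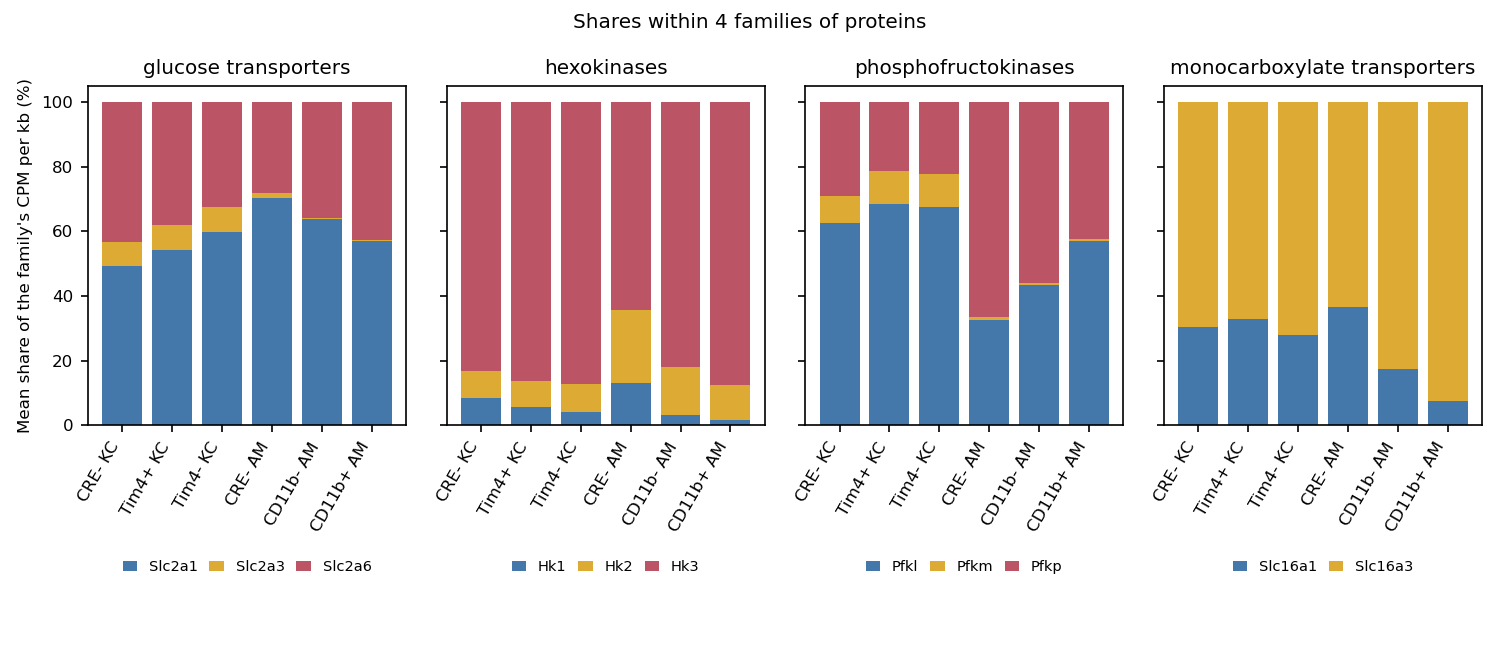
Mean share of each member (stacked bars, percent of the family's CPM per kb of exon) in the 6 groups, for glucose transporters, hexokinases, phosphofructokinases and monocarboxylate transporters. Hk3 grows from 64.2% in CRE- AMs to 87.6% in CD11b+ AMs, and Pfkl from 32.4% to 57.1%.

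Pfkl rose by 0.21 ± 0.07 in the CD11b- group and by 0.83 ± 0.07 in the CD11b+ group, and Pfkp fell by 0.46 (SE 0.07) and 0.64 (SE 0.07) on the log2 scale, to 176, 208, 174, 188 and 184 CPM and to 155, 174, 180, 172 and 148 CPM. The Pfkl call in the CD11b- group was lost without CD11b- AM replicate 1, 2, 4 or 5 or CRE- AM replicate 1, 4 or 5 (adjusted p up to 0.0946), with library totals, with a replicate block and in a fit of those 2 groups alone (adjusted p = 0.0521, 0.058 and 0.0632). Pfkfb4 fell by 0.30 (SE 0.08) and 0.39 (SE 0.08). Aldoc fell by 0.35 (SE 0.11, adjusted p = 0.0174) and 0.42 (SE 0.11, adjusted p = 0.00299), opposite to its direction in KCs, with overlap in both and no call in CD11b- AMs without CRE- AM replicate 4 (adjusted p = 0.0641). Pfkfb3 fell in CD11b- AMs by 0.63 (SE 0.21, adjusted p = 0.0355), where CRE- AM replicate 5 stood at 28.6 CPM and the other 4 at 15.3 to 17.9. That call was lost without that library (-0.44, adjusted p = 0.133) and also without CD11b- AM replicate 1, 2, 3 or 5, and in CD11b+ AMs the change was -0.15 ± 0.21.

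Changes in lower glycolysis were small. In CD11b- AMs Pgk1, the phosphoglycerate kinase, and Pkm, the pyruvate kinase, rose by 0.38 ± 0.07 and 0.30 ± 0.05. In CD11b+ AMs Gapdh, Pgk1 and Pkm rose by 0.25 to 0.47, and Pgam1, the phosphoglycerate mutase, fell by 0.55 (SE 0.07) on the log2 scale. With library totals 1 of the 5 tested genes rose and 2 fell in CD11b+ AMs, and Gapdh and Pgk1 did not pass (adjusted p = 0.227 and 0.39). Eno1, the main enolase, read only 6.25 to 12.7 CPM as a group mean in all 6 groups and is reported as uncertain, because near-identical copies of it exist and their part in its counts was not tested. Eno2 had almost no reads and was not tested.

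Slc16a1 fell most of the members in both CRE+ AM groups. It was 53.9, 36.7, 40.4, 45.5 and 43.5 CPM in CRE- AMs, 14.2, 11.5, 14.9, 12.1 and 9.96 CPM in CD11b- AMs and 1.77, 4.57, 5.11, 4.69 and 3.13 CPM in CD11b+ AMs. The 3 groups did not overlap, and it fell by 1.82 (SE 0.19, adjusted p = 7.7e-07) and 3.52 (SE 0.21, adjusted p = 4.67e-11) on the log2 scale. Slc16a3 fell in CD11b+ AMs by 0.66 (SE 0.15, adjusted p = 0.00107), from 110, 104, 78.8, 78.5 and 91.6 CPM to 60.1, 44.4, 51.0, 65.4 and 76.0 CPM. In CD11b- AMs its change was -0.37 ± 0.15 (adjusted p = 0.0711), which passed without CD11b- AM replicate 1 (adjusted p = 0.0192) and, at 0.0473 to 0.0494, with limma-voom, with a replicate block and in a fit of those 2 groups alone. Ldha fell in CD11b+ AMs by 0.29 (SE 0.06), to 894, 904, 864, 914 and 927 CPM, below all CRE- AM samples, and was 0.10 ± 0.06 in CD11b- AMs. Fbp1 did not pass in either group. In CD11b+ AMs its change was 0.72 ± 1.01, against 4.44 (adjusted p = 0.000397) without CRE- AM replicate 4 and 3.72 (adjusted p = 0.00341) with limma-voom. CD11b+ and CD11b- AMs did not overlap for Fbp1, at a difference of 2.79 ± 1.11 (adjusted p = 0.056) that passed with limma-voom (2.97, adjusted p = 0.00765), a replicate block (2.99, adjusted p = 0.0309) and a fit of those 2 groups alone (2.75, adjusted p = 0.00079).

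For pyruvate entry, Mpc1 and Mpc2 rose in CD11b- AMs by 0.37 ± 0.07 and 0.33 ± 0.07. In CD11b+ AMs Mpc2 fell by 0.38 (SE 0.07) and Mpc1 did not pass (-0.15 ± 0.07), except with library totals (-0.34, adjusted p = 0.000613), a replicate block (-0.16, adjusted p = 0.0457) or without CD11b+ AM replicate 1 (-0.21, adjusted p = 0.0296). Pdk1 was 13.6, 8.04, 14.4, 15.6 and 14.7 CPM in CRE- AMs, 24, 30.1, 30.3, 25.6 and 29.0 CPM in CD11b- AMs and 24.9, 30.7, 26.1, 21.9 and 26.4 CPM in CD11b+ AMs. Both CRE+ groups lay above every control and overlapped each other (1.06 ± 0.15, adjusted p = 2.96e-05, and 0.95 ± 0.15, adjusted p = 3.14e-05).

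Most TCA cycle genes fell in CD11b+ AMs. Of 14, 10 fell and 1 rose, against 20.5% and 22.8% of all genes. All 11 were without overlap of the groups, against 13.9% lower and 18.6% higher of all genes, at a median log2 change of -0.41 over the list against -0.01 over all genes. With library totals 12 fell and none rose. In CD11b- AMs 2 rose and 2 fell, against 13.3% and 12.4% of all genes, at a median of 0.03. Idh1 was 646, 690, 579, 544 and 534 CPM in CRE- AMs, 607, 521, 420, 468 and 472 CPM in CD11b- AMs and 323, 314, 248, 245 and 276 CPM in CD11b+ AMs. It fell by 1.11 (SE 0.10, adjusted p = 2.7e-08) in CD11b+ AMs, whereas the CD11b- change of -0.28 ± 0.10 did not pass (adjusted p = 0.0508) and did so without CRE- AM replicate 4 or 5 or CD11b- AM replicate 1 (adjusted p = 0.046, 0.0411 and 0.0132), as it did with limma-voom (adjusted p = 0.032), DESeq2 (adjusted p = 0.0327), library totals (adjusted p = 0.0446), at least 10 counts in every sample (adjusted p = 0.0431), a replicate block (adjusted p = 0.00201) and a fit of those 2 groups alone (adjusted p = 0.0409).

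The other TCA cycle genes that fell in CD11b+ AMs were the 3 subunits of the NAD-dependent isocitrate dehydrogenase (Idh3a, Idh3b and Idh3g, at -0.60 ± 0.08, -0.30 ± 0.07 and -0.62 ± 0.06), Aco1, Idh2, Ogdh, Suclg1, Fh1, which makes malate from fumarate, and Mdh2. Citrate synthase (Cs), which opens the cycle, rose by 0.19 ± 0.05 (adjusted p = 0.00641), a call lost with library totals (0.01, adjusted p = 0.926). Idh2, the mitochondrial NADP-dependent enzyme, fell alike in both groups, by 0.61 (SE 0.09) without and 0.58 (SE 0.09) with CD11b, and CD11b+ less CD11b- AMs gave 0.04 ± 0.09.

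**Figure D4:**
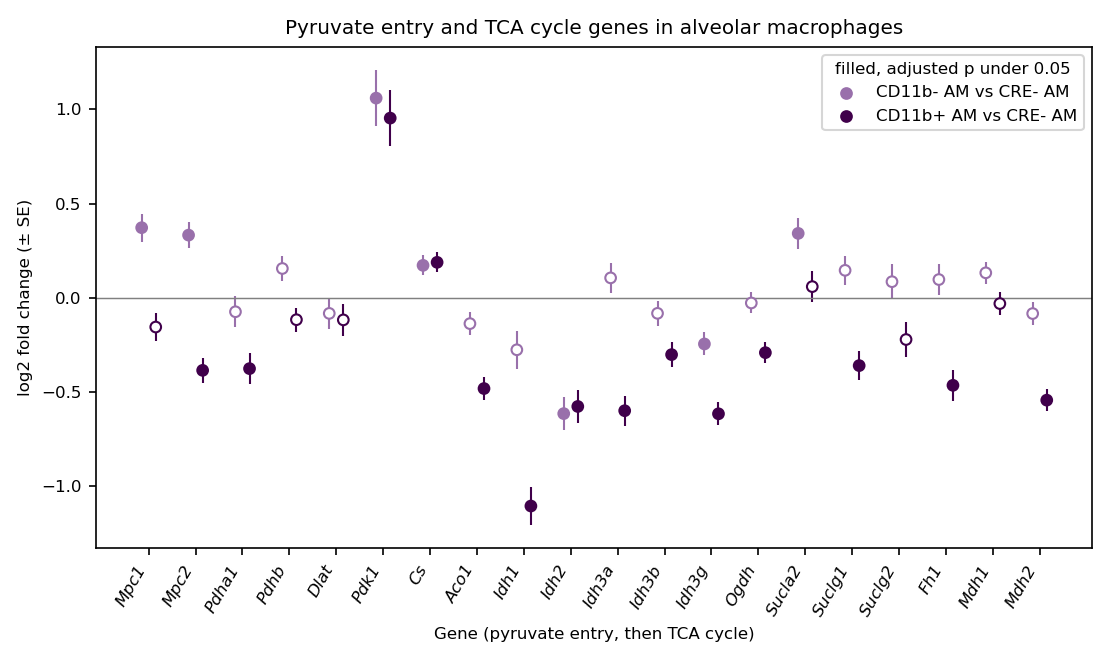
Log2 fold change (points; bars, SE) of pyruvate entry and TCA cycle genes in CD11b- AMs (light) and CD11b+ AMs (dark) against CRE- AMs, filled where the adjusted p was under 0.05. In CD11b+ AMs 10 of the 14 genes lie below 0 and passed, down to -1.11 for Idh1, and of these 14 Cs is the one that rose, a call lost with library totals.

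Between the CRE+ AM groups, 11 members were higher and 19 lower in CD11b+ than in CD11b- AMs (24.4% and 42.2%), against 19.8% and 16.6% of all genes, and with library totals 6 were higher and 26 lower. Groups did not overlap for 11 and 17 of them, against 15.1% and 10.7%, and 4 and 1 differed by more than 1, against 6.85% and 3.30%. Of the 14 TCA cycle genes 12 were lower and none higher, led by Idh1 (-0.83 ± 0.10) and Idh3a (-0.71 ± 0.08), and Mpc2 was lower as well (-0.72 ± 0.07). All 3 glucose transporters were higher, Slc2a3 included (1.68 ± 0.46, adjusted p = 0.00769). The Hk2 difference of 0.40 ± 0.13 (adjusted p = 0.0184) was lost without CD11b+ or CD11b- AM replicate 2 (adjusted p = 0.0617 and 0.0539) and with library totals (0.23, adjusted p = 0.157).

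Genes listed as markers of other cells rose beside these changes. Neutrophil markers summed to 35.9 to 59.6 CPM in CRE- AMs, 805 to 2421 CPM in CD11b- AMs and 8163 to 10464 CPM in CD11b+ AMs, where all 6 tested rose and S100a8 and S100a9 alone averaged 4439 and 3663 CPM. In CD11b- AMs 4 of the 6 tested rose. Camp, a granule gene of maturing neutrophils, held 3 reads or fewer in every CRE- and CD11b- AM library. Retnlg and Mmp9, others of the list, did so in the CD11b- group. In CD11b+ AMs every gene of the list exceeded 3 reads in at least 1 library. Lung epithelial markers summed to 115 to 153, 504 to 601 and 1319 to 1697 CPM, and 5 of 8 rose in CD11b- and 6 of 8 in CD11b+ AMs. That list holds Epcam, which the study found on AMs that had lost Zeb2, so it is not specific to other cells. Monocyte markers summed to 5.97 to 10.1, 12.5 to 25.3 and 71.6 to 262 CPM. Of 6 proliferation markers, 5 were lower in CD11b+ than in CD11b- AMs. Their part in the members' changes was not tested.

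The changes of the CRE+ KCs and CRE+ AMs were then compared directly, as the mean log2 change of both CRE+ KC groups less that of both CRE+ AM groups. Of 46 members tested, 11 were higher and 5 lower (23.9% and 10.9%), against 10% and 9.52% of the 13294 genes tested, and 17 and 4 with library totals. Above an absolute value of 1 there were 2 and 4, against 3.50% and 4.65%. Tissue, Cre driver and, in part, sex of the mice cannot be told apart here. Irg1 (-3.57 ± 0.57, adjusted p = 1.32e-05, and -4.31 with limma-voom), Slc2a6 (-2.76 ± 0.34), Slc2a1 (-1.57 ± 0.15) and Hk3 (-1.51 ± 0.11) changed further upward in AMs. Slc16a1 (2.71 ± 0.37), which fell in AMs, and Aldoc (2.18 ± 0.33, adjusted p = 7.34e-06), which rose in KCs and fell in AMs, differed the other way.

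Pdk1 gave -0.06 ± 0.22 (adjusted p = 0.934), with changes of 0.76 and 1.12 in KCs beside 1.06 and 0.95 in AMs. Of the 14 TCA cycle genes 5 (Idh1, Idh2, Idh3g, Mdh1 and Mdh2) gave a positive difference and none a negative one, and 3 did with KC replicates 1 to 4 only, and 8 with library totals. Hk1, which fell in all 4 CRE+ groups save for Tim4+ KCs with replicates 1 to 4 only, gave 0.65 ± 0.22 (adjusted p = 0.0304), a call lost with limma-voom (adjusted p = 0.0698) and without CRE- KC replicate 1, 2 or 6, CRE- AM replicate 3 or 5 or CD11b+ AM replicate 1 (adjusted p up to 0.076). The Idh1 difference of 0.33 ± 0.12 (adjusted p = 0.0465) was lost on leaving out any of 20 single libraries (adjusted p up to 0.124), and that of Mdh1 (0.22) on leaving out any of 23 (adjusted p up to 0.108). Both calls were also lost with DESeq2, RLE scaling, no filter, at least 10 counts in every sample and KC replicates 1 to 4 only (adjusted p up to 0.183). That of Mdh1 was lost with limma-voom as well (adjusted p = 0.0505).

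Genes of neighbouring pathways, taken from lists by function, were counted in the same fits. Of 17 tested genes of the hypoxia (HIF) pathway outside glycolysis, 8 rose and 2 fell in CD11b+ AMs (22.8% and 20.5% of all genes tested) and 5 rose and 2 fell in CD11b- AMs (13.3% and 12.4%). Egln3, a prolyl hydroxylase that marks HIF for destruction, averaged 0.0178 CPM in CRE- AMs, 3.43 ± 0.80 in CD11b- AMs and 28.4 ± 4.38 in CD11b+ AMs. In Tim4+ KCs 1 rose and none fell (3.63% and 2.46% of all genes), and in Tim4- KCs 1 rose and 5 fell (12.2% and 13.2%). Ddit4, an inhibitor of mTORC1 signalling, was the one that rose, from 1.54 CPM ± 0.37 to 20.2 ± 6.88 and 33.5 ± 13.7 (3.68 ± 0.28 and 4.41 ± 0.29 on the log2 scale), while Epas1, which encodes HIF-2 alpha, fell by 1.34 (SE 0.23) in Tim4- KCs.

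Of 28 other glycolysis and pyruvate genes tested in AMs, 7 rose and 7 fell in CD11b+ AMs, against 22.8% and 20.5% of all genes. Pdk4, like Pdk1 an inhibitor of pyruvate dehydrogenase, rose from 12.1 CPM ± 3.55 to 81.2 ± 17.2 and 183 ± 34.3 (2.74 ± 0.18 and 3.90 ± 0.19), and in Tim4- KCs it fell by 1.73 (SE 0.55, adjusted p = 0.0251). Slc16a6, a further monocarboxylate transporter, fell in CD11b+ AMs by 2.69 (SE 0.17). Of the 9 pentose phosphate genes, 4 rose and 2 fell in CD11b+ AMs (22.8% and 20.5% of all genes), and in Tim4- KCs 1 rose and 1 fell (12.2% and 13.2%). The one that rose was Taldo1, a transaldolase, which went from 633 ± 36.9 to 1503 ± 107 CPM (1.23 ± 0.08, adjusted p = 1.37e-09). Of 22 other TCA cycle and shuttle genes, 9 rose and 8 fell in CD11b+ AMs (22.8% and 20.5% of all genes), and 8 rose and 2 fell in CD11b- AMs (13.3% and 12.4%).

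Promoters of the members that moved most were read from RefSeq on GRCm38.p6 as windows from 250 bases before to 50 after a start site. For 45 of the 47 members at least 1 promoter was matched, 65 in all. The core letters of the hypoxia response element, ACGTG or GCGTG on either strand, stood in 75.4% of these promoters and in 43.8% of all 32817 promoters. The E-box CACCTG, on either strand the letters that ZEB proteins are known to bind, stood in 13.8% and 20.2%. A match is a description of letters and not a bound site. Shown are 30-base windows, 5′ to 3′ on the gene's strand with the matched letters in capitals (CACGT and CACGC being the reverse complements). They are given for Slc2a1 and Pdk1, which rose in all 4 CRE+ groups, and for Slc16a1 and Irg1, which fell and rose most in AMs. Aldoc, which moved in opposite directions, and Hk1 are shown as well. Hk1 fell in all 4 groups with the exception given above, and the upstream of its 2 start sites holds the E-box. The promoter at its other start site holds no E-box but 5 matches to ACGTG or GCGTG, which are not shown. Slc2a6, which rose in both CRE+ AM groups, is not shown either, and its promoter holds 4 such matches and no E-box. The windows are thus examples and do not sort the members by motif.
Slc2a1, chr4:119108697-119108726, plus strand: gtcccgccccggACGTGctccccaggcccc
Pdk1, chr2:71873134-71873163, plus strand: ccgcctacatggGCGTGtctttaaccaggg
Slc16a1, chr3:104638453-104638482, plus strand: cggcgccgggtcACGTGgcgggaagggggg
Irg1 (Acod1 in RefSeq), chr14:103046982-103047011, plus strand: tgtataaaggcaCACGTccactaaaggccc
Aldoc, chr11:78323011-78323040, plus strand: ccacctctgaggGCGTGgccttaccctaga
Hk1, chr10:62379864-62379893, minus strand: gagtccctgaaaCACCTGggaccatggagg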

How the data were processed

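RNA of sorted KCs and AMs (33 libraries, 6 groups by source name) was sequenced by the authors on a NextSeq instrument. Per the study's methods, the authors trimmed reads at quality 20 to a minimum length of 35 and mapped them with TopHat2 to the mouse genome, and the deposited values are raw gene counts from HTSeq-count. The submitters' processing notes name the build mm10 and FastQC 0.11.4, Trimmomatic 0.35, TopHat2 2.1.0 and SAMtools 0.1.18. The 5 tally rows were left out of library sizes; reads on no feature were 4.52% to 8.90%.

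Counts were tested with edgeR 4.0.16 (quasi-likelihood, TMM, filterByExpr) in R 4.3.3, over all genes passing the filter, in fits of the 11 control, 18 KC, 15 AM or 33 libraries, at a Benjamini-Hochberg adjusted p under 0.05. The study's methods name limma-voom, run here as an alternative (limma 3.58.1) beside DESeq2 1.42.0, other scalings and filters, a replicate block, leaving out each library, and KC replicates 1 to 4 only. Exon lengths for CPM per kb were the union of all annotated exons of a gene in GENCODE M21, not the length of the transcripts present in these cells. Eno2 passed no filter and Ldhb not that of the AM fit. On simulated counts for CRE- KCs against CRE- AMs (12145 genes), edgeR recovered 87% of genes changed by 1 on the log2 scale and 35% of those changed by 0.5. For the KC change less the AM change it recovered 71% and 17%. The spread of the simulated counts was set by a formula and not estimated from these data, so these shares need not hold for them.

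Members and lists were chosen with earlier results of these data known. All members may be named; those given with full values were 15 members set by name and, in each comparison, up to 4 called members each way whose groups did not overlap, and related genes with an absolute log2 change above 1. Same-numbered Tim4- and Tim4+ KC libraries deviated together (correlation 0.157 to 0.303, 6 of 6 pairs over 0.1). That hints that these numbers pair the samples, though the labels do not say so. The part of the Y-linked and Xist difference of replicates 5 and 6 in this correlation was not tested. The replicate block gave the same counts, 5 higher and 1 lower. SE was derived from the fold change and the F statistic.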

Additional observations from a re-analysis of the deposited data

Results flagged for a closer look

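Single libraries stood apart from the rest of their group, by Dixon's test at the 95% level, in 12 of 144 groups of named members examined, where chance gives about 1 in 20. Among KCs, Slc2a6 was 74.3 CPM in Tim4- KC replicate 3 (others 36.8 to 47.1), Aldoc 6.76 in CRE- KC replicate 5 (others 3.25 to 4.01) and Slc16a3 24.8 in CRE- KC replicate 3 (others 14 to 17.5). Tim4+ KC replicate 5 stood apart for both Fbp1 (36.9, others 6.13 to 17.4) and Pdk1 (32.0, others 17.5 to 22.8). Among AMs, Fbp1 was 7.70 CPM in CRE- AM replicate 4 (others 0 to 0.244), Pfkfb3 28.6 in CRE- AM replicate 5 (others 15.3 to 17.9) and Pdk1 8.04 in CRE- AM replicate 2 (others 13.6 to 15.6). Hk2 was 25.6 in CD11b- AM replicate 2 (others 31.8 to 33.4) and Gpi1 231 in CD11b- AM replicate 3 (others 252 to 257). Mpc2 was 88.4 in CD11b+ AM replicate 3 (others 104 to 108) and Idh3g 108 in CD11b+ AM replicate 1 (others 96.1 to 98.9).

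The change in CRE+ KCs differed from that in CRE+ AMs for 16 members by the interaction test in edgeR (adjusted p under 0.05). The log2 difference was negative for Irg1 (-3.57), Slc2a6 (-2.76), Slc2a1 (-1.57), Hk3 (-1.51) and Pfkl (-0.39). It was positive for Mdh1 (0.22), Idh1 (0.33), Ldha (0.35), Idh3g (0.42), Pgam1 (0.44), Gpi1 (0.44), Mdh2 (0.53), Idh2 (0.62), Hk1 (0.65), Aldoc (2.18) and Slc16a1 (2.71). The calls of Mdh1, Idh1 and Hk1 were lost in the settings given above. Ldha lost its call with KC replicates 1 to 4 only (edgeR adjusted p = 0.106), and Pfkl with library totals (adjusted p = 0.0972).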

How the results depend on the processing

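Calls of members kept their direction and side of the threshold in most settings: 354 of 365 with limma-voom, 351 of 365 with DESeq2, 326 of 365 with library totals, 209 of 230 with KC replicates 1 to 4 only and 4858 of 5030 on leaving out 1 library. Of 5 reversals, 4 arose with library totals in CD11b+ against CD11b- AMs, for Aldoa (-0.0072), Cs (-0.15, edgeR adjusted p = 0.0339), Gapdh (-0.022) and Pkm (-0.0029). The other was Fbp1 in the KC change less the AM change, 0.64 in the full fit and, on leaving out 1 library, between -3.09 (adjusted p = 0.0043, without CRE- AM replicate 4) and 0.96. Counts of members moved by over 1.5 times as follows, and the cause was not tested. With library totals, 7 were higher in CD11b+ against CRE- AMs, 6 in CD11b+ against CD11b- AMs and 17 in the KC change less the AM change, and 2 were lower in Tim4- than in Tim4+ KCs. With at least 10 counts in every sample, 6 were higher in CRE- KCs than in CRE- AMs. DESeq2 called 8 higher in Tim4- than in Tim4+ KCs. With KC replicates 1 to 4 only, 2 rose and 1 fell in Tim4+ KCs, 3 fell in Tim4- KCs, and 3 were higher and 2 lower in Tim4- than in Tim4+ KCs. Requiring an absolute log2 change above 1 left 8 lower in CRE- KCs than CRE- AMs, 1 and 0 (higher and lower) for Tim4+ KCs, 3 and 1 for Tim4- KCs, 0 and 0 between them, 4 and 2 for CD11b- AMs, 4 and 3 for the CD11b+ group, 4 and 1 between these, and 2 higher in the KC change less the AM change.

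Leaving out 1 library gave, higher and lower, 11 to 11 and 20 to 21 for CRE- KCs against CRE- AMs, 3 to 6 and 2 to 4 for Tim4+ KCs, 12 to 15 and 5 to 7 for Tim4- KCs, 3 to 7 and 1 to 2 for Tim4- against Tim4+ KCs, 11 to 12 and 7 to 9 for CD11b- AMs, 13 to 14 and 20 to 21 for CD11b+ AMs, 9 to 11 and 18 to 21 for CD11b+ against CD11b- AMs, and 8 to 13 and 5 to 6 for the KC change less the AM change. The 5 that fell in Tim4+ KCs became 2 or 3 without CRE- KC replicate 3, 4, 5 or 6 or Tim4+ KC replicate 1, 2, 3, 5 or 6. The members lower in Tim4- than in Tim4+ KCs became 2 without Tim4+ KC replicate 5 or Tim4- KC replicate 1, and those higher became 3 without Tim4+ KC replicate 4.

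With a replicate block the counts came to 6 and 5 for Tim4+ KCs, 13 and 6 for the Tim4- group, 11 and 10 for CD11b- AMs and 13 and 21 for the CD11b+ group. Irg1 then passed in Tim4+ KCs (0.84, edgeR adjusted p = 0.00828) and Tim4- KCs (0.86, adjusted p = 0.00242), but by the labels the samples share only a number. Besides the Tim4- and Tim4+ KCs, a hint of pairing came from CD11b+ against CD11b- AMs. There 4 of 5 pairs correlated over 0.1 and 5 of 5 best with their own number. Members at a few CPM (Pfkm, Ldhb, Fbp1 and Irg1 in AMs) have wide errors. On the simulated counts, whose spread was set by a formula, log2 changes of 0.5 were often not recovered.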
